A study of Mus musculus with 18 samples.

Results

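The 6 libraries described here are those of mouse bone marrow-derived macrophages (BMDMs) labelled Zmat1 knockout (KO) on day 0 and on day 3 of RANKL, 3 libraries on each day, out of 18 in the series. They were chosen by their labels alone, and no measured value entered the choice. The series measured mRNA by sequencing in BMDMs labelled KO or wild type (WT), on days 0, 1 and 3 of osteoclast induction, with 3 libraries in each of 6 groups. BMDMs are macrophages raised in culture from marrow cells by M-CSF, a growth factor, and RANKL is the cytokine that turns them into osteoclasts. All 6 libraries had M-CSF. The day 0 libraries had M-CSF alone and the day 3 libraries had M-CSF with RANKL for 3 days, so the comparison asks how cells labelled KO answered RANKL. The days also differ by 3 days in culture, and no day 3 library without RANKL is among the 18, so RANKL and time in culture cannot be told apart. The study describes its animals as a global Zmat1 deletion on a C57BL/6 background with wild-type littermates as controls. Age and sex do not stand in the labels, and the study's methods give a range of ages in weeks for the mice that gave BMDMs. The labels also do not say whether the numbered libraries of a group came from separate mice or cultures. The p-values come from a fit of all 18 libraries. They measure only the spread between libraries of a group, which may be technical.

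RANKL binds the receptor RANK on macrophages and acts through NF-kappa B, AP-1 and calcium signals that come through ITAM-bearing adaptors. These inputs meet on NFATc1, the transcription factor that drives the osteoclast programme. Maturing osteoclasts fuse into large cells with many nuclei, seal off a patch of bone with a ring of podosomes, pump acid through the vacuolar proton pump and digest the matrix with cathepsin K. Macrophages, their precursors, are built for phagocytosis, lysosomal digestion, pathogen sensing and antigen presentation.

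The 6 libraries held between 14144116 and 16262986 counts each. The targeted gene, Zmat1 (ENSMUSG00000052676, chromosome X, 134971372 to 135009209, minus strand), a zinc finger protein, was read at 3.49, 7.61 and 4.30 CPM, the counts scaled to a common library size, in day 0 libraries 1, 2 and 3 and at 5.66, 4.65 and 4.81 CPM in day 3 libraries 1, 2 and 3. The days overlapped, with a log2 difference of -0.03 (SE 0.403, adjusted p = 0.966, edgeR quasi-likelihood test). The day 0 mean was 5.13 ± 2.18 CPM (SD, n = 3) under the label KO and 4.35 ± 2.74 CPM (SD, n = 3) under the label WT. On day 3 the means were 5.04 ± 0.541 CPM under KO and 3.26 ± 1.3 CPM under WT (SD, n = 3). Mean Zmat1 levels were thus no lower under the label KO on either day, and the labels were not tested against each other. The study describes genotyping of its mice by PCR on tail DNA and qPCR for Zmat1 in BMDMs, which were not analysed here, and its text does not say which part of the gene was deleted, so the libraries are called by their labels here. Macrophage markers were high on day 0: Adgre1, which codes for the F4/80 antigen, was at 1780, 1500 and 1480 CPM and Cd68 at 1110, 1890 and 1380 CPM. Day 0 library 2 stood apart from the others. It carries a different style of title, its 10 most abundant genes took 19.9% of counts against 14.1% and 14.6% in the other 2 day 0 libraries, and it sat at the far end of the second principal component opposite day 0 library 3. Results that rest on it are given with and without it.

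RANKL day 3 separated from day 0 across much of the transcriptome. Of 14241 genes tested, 6046 (42.5%) differed at an adjusted p under 0.05, with 2873 (20.2%) higher and 3173 (22.3%) lower on day 3. In 8368 genes (58.8%) every library of one day lay above every library of the other. Among the genes called, 1748 were at least 2-fold higher and 1565 at least 2-fold lower, and 452 were at least 8-fold higher against 205 at least 8-fold lower. Of these, 151 of the 452 and 42 of the 205 had 3 or fewer counts in every library of one day, where a fitted fold change is no bound. With such genes set at the fold that 3 counts per library allow, 359 were at least 8-fold higher and 183 at least 8-fold lower. The root mean square log2 difference was 1.21 to 1.63 between libraries of different days, 0.66 to 0.918 within day 0 and 0.486 to 0.718 within day 3. The first principal component of the 6 libraries split the days and carried 71.8% of the variance. Scaling by total counts in place of TMM moved the median log2 change of all genes from -0.01 to 0.287 and the split to 4274 higher and 1963 lower, so all changes here are relative to the TMM-scaled bulk of genes. The list counts that follow stand against the shares of 20.2% higher and 22.3% lower over all genes.

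**Figure D1:**
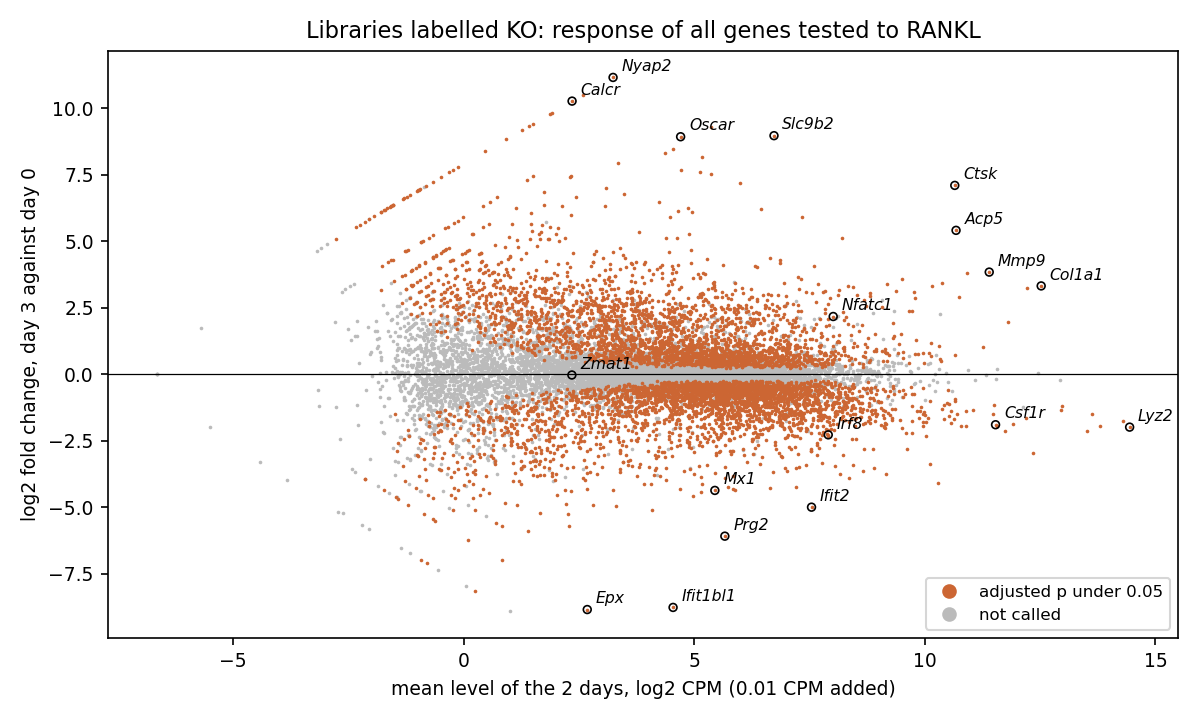
Each point is 1 of 14241 genes in the 6 libraries labelled KO, with the mean level of both days on the x axis (log2 CPM) and the log2 fold change of day 3 against day 0 on the y axis. Orange points are the 6046 genes with an adjusted p under 0.05 and grey points the rest, and osteoclast genes such as Ctsk stand at the top while interferon and granule genes stand at the bottom.

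Genes for bone matrix digestion and acid secretion were among the large rises. Ctsk (ENSMUSG00000028111, chromosome 3, 95499256 to 95509362), which codes for cathepsin K, the main collagenase of the osteoclast, was at 22.3, 28.0 and 19.7 CPM on day 0 and at 3010, 4450 and 2120 CPM on day 3. Every day 3 library was far above every day 0 library, with a log2 change of 7.10 (SE 0.551, adjusted p = 4.78e-06, edgeR quasi-likelihood test with Benjamini-Hochberg adjustment, as for every adjusted p here). In deposited FPKM, which are per gene length, Ctsk went from 14.2 ± 1.65 to 2420 ± 941 (SD, n = 3) and became the ninth most abundant gene of day 3. Acp5, which codes for the tartrate-resistant phosphatase used as the histological stain of osteoclasts, went from 66.1, 70.0 and 89.9 CPM to 3070, 4220 and 2300 CPM (log2 change 5.41, adjusted p = 4.78e-06). Mmp9, a gelatinase, was already present on day 0 at 356, 135 and 566 CPM and reached 4830, 7370 and 2910 CPM (log2 change 3.84, adjusted p = 0.000787). In all 3 genes day 3 library 2 was highest and library 3 lowest. Slc9b2, a sodium/proton exchanger of osteoclasts, went from under 1 CPM in each day 0 library to 210, 291 and 137 CPM (log2 change 8.97, adjusted p = 1.41e-05, and 10.42 without day 0 library 1). Of the 14 tested genes in the list of matrix resorption and acid secretion, 8 rose, 3 fell and 3 were not called, with a median log2 change of 1.76 beside -0.01 over all genes. The falls were smaller: Plekhm1, which tethers lysosomes to the ruffled border, changed by -0.83 and Rab3d, a vesicle GTPase, by -0.75 on the log2 scale. The third fall was Tcirg1, a proton pump subunit, from 1080, 1290 and 1150 CPM to 829, 931 and 694 CPM (log2 change -0.52, adjusted p = 0.0262). Tcirg1 missed the threshold in 7 of 15 other fits. In bulk RNA of this kind, more cells of a type and more RNA per cell cannot be told apart.

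**Figure D2:**
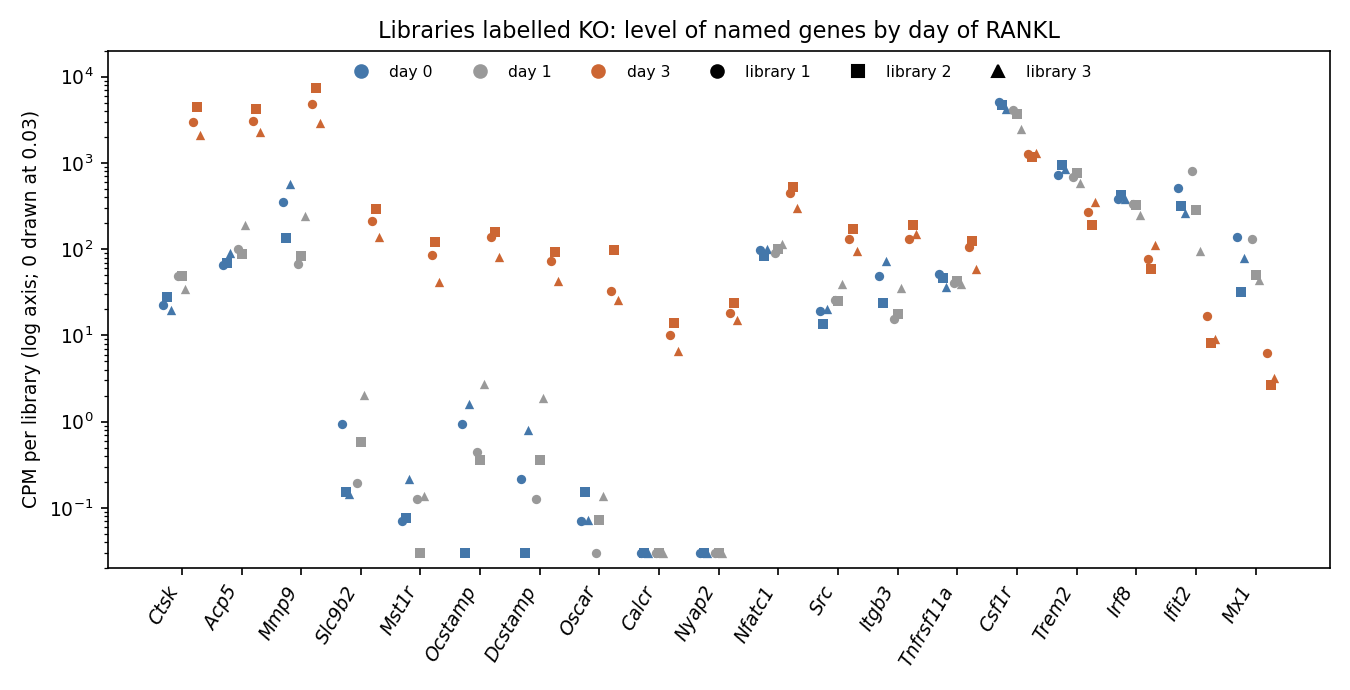
Level of named genes in each library labelled KO (CPM, log axis, values of 0 drawn at the bottom), coloured by day of RANKL with marker shapes for libraries 1, 2 and 3. Ctsk and Acp5 were between 19.7 and 89.9 CPM in every day 0 library and between 2120 and 4450 CPM in every day 3 library, whereas Csf1r went the other way.

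The 12 largest rises with at least 10 CPM on day 3 included known osteoclast genes, and 3 of them had no counts on day 0. Calcr, the calcitonin receptor, had 0 counts in all day 0 and all day 1 libraries and 10.2, 13.8 and 6.68 CPM on day 3, which was at least 46.3-fold higher than 3 counts per library would allow. Nyap2, a phosphoprotein that links to PI3 kinase, likewise went from 0 in every day 0 and day 1 library to 18, 23.6 and 15.0 CPM, at least 85.4-fold higher. Mst1r, the receptor for macrophage-stimulating protein, had at most 0.218 CPM on day 0 and 85.2, 122 and 41.4 CPM on day 3, at least 375-fold higher. Oscar, an immunoglobulin-like receptor that binds collagen and signals through ITAM adaptors, was at least 236-fold higher at 32.7, 98.0 and 25.6 CPM on day 3, with library 2 well above the other two, and at least 132-fold higher without that library. The metallothionein Mt3 was at least 209-fold higher and Siglec15, a sialic acid receptor of osteoclasts, at least 187-fold higher. Capn6 was at least 54.4-fold higher, with no counts on day 0. Cyp2s1, a cytochrome P450, rose by 8.15 and Scin, the actin-severing protein scinderin, by 7.69 on the log2 scale (adjusted p = 0.000203 and 2.98e-05), and Scin by 9.35 without day 0 library 3. Igf2 was the least even of these genes, at 33.2, 27.2 and 0.453 CPM on day 3 against 0.214, 0 and 0 CPM on day 0, at least 91.9-fold higher by the mean but close to the day 0 level in day 3 library 3.

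**Figure D3:**
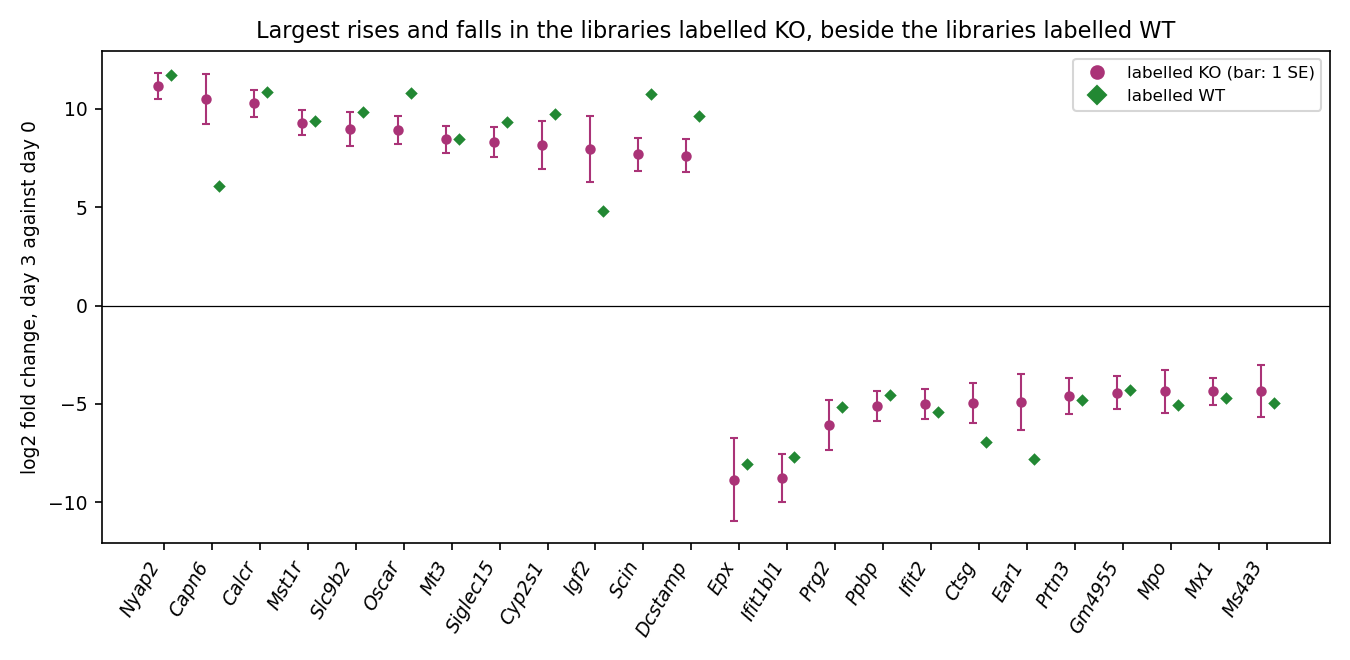
Log2 fold change of day 3 against day 0 for the 12 largest rises and the 12 largest falls, in libraries labelled KO (circles, bars of 1 SE) and in libraries labelled WT (diamonds). The sign was the same under both labels in all 24 genes, and fitted values of genes with 0 counts on a day, such as Nyap2 at 11.16, are no bounds.

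The fusion genes Dcstamp and Ocstamp rose from near 0. Dcstamp and Ocstamp, the membrane proteins without which osteoclast precursors stay mononuclear, went from at most 0.801 and 1.60 CPM on day 0 to 73.0, 91.8 and 42.7 CPM and to 140, 158 and 82.0 CPM. The log2 changes were 7.62 (adjusted p = 2.94e-05) and 7.20 (adjusted p = 9.01e-05), and 9.22 and 8.06 without day 0 library 3, which held the highest day 0 values. Cd200, a surface glycoprotein with a part in fusion, rose by 3.02 and Cd47, the ligand of Sirpa, fell by 1.13 on the log2 scale. Over the list, 7 of 13 genes rose, 2 fell and 4 were not called (median 1.63). The 2 falls became 1 without day 0 library 2, day 3 library 1 or day 3 library 2.

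Receptors for the cytokines of the culture moved in opposite directions. Tnfrsf11a, which codes for RANK, was at 52.0, 46.8 and 36.1 CPM on day 0 and 107, 125 and 59.5 CPM on day 3, a rise of 1.11 on the log2 scale (adjusted p = 0.0093). Csf1r, the M-CSF receptor, went from 5090, 4690 and 4240 CPM to 1270, 1170 and 1320 CPM, a fall of 1.90 (adjusted p = 0.000125). Its day 3 libraries lay close together and well under those of day 0. Tnfrsf1b, a TNF receptor, fell by 1.90 and the adaptor Grb2 by 1.47. In the list of RANK and M-CSF receptors and adaptors 2 of 14 genes rose, 5 fell and 7 were not called (median -0.11). The 2 rises were Tnfrsf11a and the calcitonin receptor Calcr, which is in this list and was described above.

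Nfatc1 and some other transcription factors of the osteoclast rose, but the list as a whole had a share of rises close to that of all genes, while most macrophage factors fell. Nfatc1 went from 97.6, 84.1 and 100 CPM to 447, 521 and 301 CPM, with no overlap and a log2 change of 2.17 (SE 0.2, adjusted p = 1.12e-05). Fosl2, a member of the AP-1 family, rose by 2.99 and Ppargc1b, a coactivator of mitochondrial biogenesis, by 3.67 (adjusted p = 1.66e-05 and 1.2e-05). Nfatc2 fell by 1.42, and Tfeb and Tfe3, which drive lysosomal genes, fell by 1.18 and 1.16. Fos was at 45.9, 36.4 and 55.8 CPM on day 0 and 115, 114 and 61.6 CPM on day 3 and Mitf between 58.5 and 94.9 CPM throughout, with log2 differences of 1.07 (adjusted p = 0.125) and -0.37 (adjusted p = 0.0865) that did not pass the test. On the 6 libraries alone both passed (adjusted p = 0.0192 and 0.0464), and Fos also with the replicate block there (adjusted p = 0.0419). In the list, 6 of 26 genes rose, 5 fell and 15 were not called (median 0.16), and the 6 rises became 3 without day 3 library 2. Of the macrophage factors and repressors of osteoclast formation, 10 of 18 fell, 1 rose and 7 were not called (median -0.88). Irf8, a repressor of osteoclast formation, went from 384, 427 and 382 CPM to 76.1, 59.5 and 111 CPM (log2 change -2.28, adjusted p = 0.000343). Cebpb fell by 1.60 and Irf4 by 2.11, while Klf4 was the one that rose, by 1.62.

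The ITAM pathway, apart from Oscar, was mostly lower. Of 18 genes in the list of ITAM costimulation 13 fell, 2 rose and 3 were not called (median -1.28), and the 2 rises became 1, Oscar, without any of day 0 libraries 1 to 3 or day 3 libraries 1 and 2. Fcgr3, an Fc receptor, went from 1250, 1270 and 1280 CPM to 274, 190 and 351 CPM (log2 change -2.22), and Trem2, a lipid-sensing receptor, fell by 1.64 on the log2 scale. Genes of the sealing zone rose in part: Src, the kinase needed for the ruffled border, went from 19.2, 13.6 and 20.1 CPM to 131, 173 and 96.0 CPM (log2 change 2.92, adjusted p = 0.00011), cortactin (Cttn) rose by 2.25 and Dock5, a Rac activator, by 2.21. Itgb3, the beta chain of the osteoclast vitronectin receptor, rose by 1.71 (adjusted p = 0.00555), while Was and Itga4 fell by 1.24 and 0.98. Over integrins and podosome genes 12 of 28 rose, 7 fell and 9 were not called (median -0.02), and the 7 falls became 4 without day 3 library 2.

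Most subunits of the vacuolar proton pump were not called. In the list 5 of 18 rose, 2 fell (Atp6v0a1 by 0.99 and Tcirg1 by 0.52 on the log2 scale) and 11 were not called (median 0.35). These counts were unsteady: the rises were 3, 2 and 3 without day 0 library 1, day 3 library 2 and day 0 library 3, and the falls were 0 without day 0 library 2, day 0 library 3 or day 3 library 1 and 1 without day 3 libraries 2 or 3. Atp6v1d, a subunit of the catalytic sector, went from 97.2, 130 and 113 CPM to 193, 218 and 155 CPM (log2 change 0.73, adjusted p = 0.0077). Atp6v0d2, the osteoclast isoform of a membrane subunit, stood at 79.1, 374 and 136 CPM on day 0 and 461, 615 and 354 CPM on day 3. Day 0 library 2 reached into the range of day 3, and the log2 difference was 1.28 (adjusted p = 0.388), against 2.17 (adjusted p = 0.235) without that library. It passed with title style as a covariate (2.40, adjusted p = 0.0137) and with the replicate block on the 6 libraries alone (1.54, adjusted p = 0.0222).

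Genes of energy metabolism and biosynthesis rose as groups. Of 47 nuclear genes of the mitochondrial respiratory chain, 32 rose, 0 fell and 15 were not called, with a median log2 change of 0.52. Atp5b, the catalytic subunit of ATP synthase, went from 520, 529 and 520 CPM to 1280, 1460 and 1090 CPM (log2 change 1.29, adjusted p = 6.84e-05), Cyc1 rose by 1.59 and Atp5g1 by 2.41. In glycolysis 14 of 19 genes rose, 1 fell and 4 were not called (median 1.38). Aldoc rose by 2.61, the lactate exporter Slc16a3 by 1.94 and Eno1 by 1.82, and the one fall was the hexokinase Hk3, by 1.77. In cholesterol synthesis 18 of 19 genes rose and 1 was not called (median 1.15). Lanosterol synthase (Lss) went from 24.7, 27.4 and 26.6 CPM to 101, 85.0 and 118 CPM (log2 change 1.95, SE 0.153, adjusted p = 4.78e-06), Fdps rose by 1.62 and Sqle by 1.55. In these 3 lists the counts without day 0 library 2 were 27, 13 and 17 rises.

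Amino acid supply followed in part, and few cell cycle or ribosomal protein genes were called. Of 18 genes of serine synthesis, amino acid uptake and ATF4 targets, 8 rose, 1 fell and 9 were not called (median 0.84), with 5 rises without day 3 library 2. The transporters Slc1a4 and Slc1a5 rose by 2.66 and 2.05 and the mitochondrial folate enzyme Mthfd2 by 1.65, while Sesn2 fell by 0.66. Of 37 cell cycle and DNA replication genes 1 rose and 1 fell, with a median of 0.49. The rise was not called without any one of day 0 libraries 1 to 3 or day 3 libraries 1 and 2, and 8 rose when only the 6 libraries were fitted. The proliferation marker Mki67 was at 94.4, 77.8 and 163 CPM on day 0 and 184, 138 and 135 CPM on day 3, which overlapped (log2 difference 0.45, adjusted p = 0.504). Of 57 cytosolic ribosomal protein genes 3 rose, 1 fell and 53 were not called (median 0.17), and with any of the 6 libraries left out 0 or 1 rose.

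**Figure D4:**
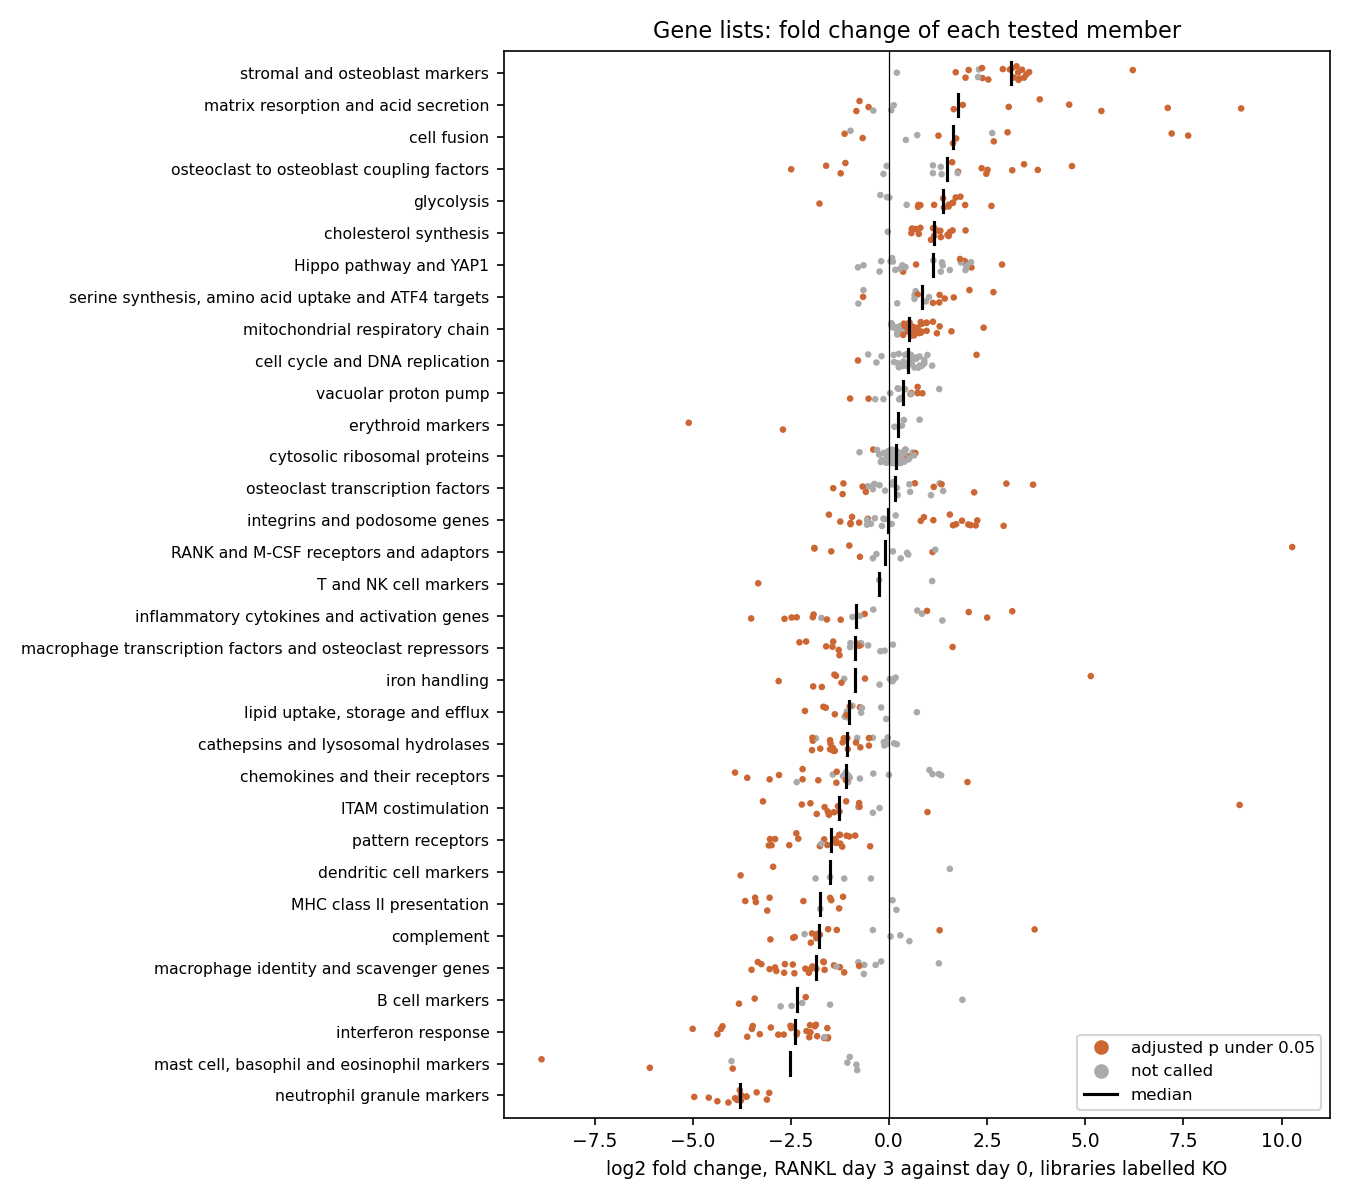
Log2 fold change of day 3 against day 0 (x axis) for every tested member of the 33 gene lists (y axis), in orange where the adjusted p was under 0.05 and grey where it was not, with a black line at the list's median. Cholesterol synthesis, glycolysis and respiratory chain genes lie to the right of 0, and interferon, pattern receptor and neutrophil granule genes to the left.

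Most genes that define the macrophage fell. By deposited FPKM, which allow levels to be compared between genes, the lysozyme gene Lyz2 was the most abundant gene on both days, yet its mean went from 25700 ± 7660 to 7950 ± 3510 FPKM (SD, n = 3), a log2 change of -1.99 in counts (adjusted p = 0.00356). Adgre1 went from the day 0 levels given above to 420, 293 and 517 CPM, a fall of 1.95 on the log2 scale. Cd68 was at 927, 982 and 918 CPM on day 3, under each day 0 library, and its log2 difference of -0.63 did not pass the test (adjusted p = 0.0592). Of 29 tested genes of macrophage identity and scavenging 22 fell and none rose, 7 were not called, and the median was -1.85. Fcgr1, the high-affinity Fc receptor, went from 471, 338 and 389 CPM to 40.7, 23.7 and 53.5 CPM (log2 change -3.34, adjusted p = 0.000388), and Timd4, a receptor for dying cells, fell by 3.25. Ly6c2, a marker of inflammatory monocytes, fell by 3.50, with -2.83 and -4.78 without day 0 library 3 and day 3 library 3. The chemokine receptor Cx3cr1 was the member that moved up in value, from 9.84, 1.77 and 47.0 CPM to 16.5, 16.2 and 109 CPM. Its days overlapped, its log2 difference of 1.27 did not pass the test (adjusted p = 0.454), and without day 3 library 3 the value was -0.26. With the replicate block on the 6 libraries alone it was 1.56 and passed (adjusted p = 0.0394).

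Receptors that sense microbes fell together: 21 of 22 pattern receptors fell and 1 was not called (median -1.47), with 16 falls without day 0 library 2. Clec4a3, a C-type lectin, went from 221, 236 and 175 CPM to 30.7, 21.7 and 23.5 CPM (log2 change -3.06, SE 0.277, adjusted p = 9.81e-06), and Clec4a1 fell by 2.99. Genes of lipid uptake, storage and efflux fell in 7 of 18 cases and rose in 0 (median -1.03), and the 7 falls became 4 without day 3 library 2 or day 0 library 2. Apoe, the apolipoprotein of macrophages, went from 19500, 23400 and 14700 CPM to 3840, 2960 and 6260 CPM (log2 change -2.14, adjusted p = 0.00504), and the lysosomal lipase Lipa fell by 1.67. Of 14 iron genes 7 fell, 1 rose and 6 were not called (median -0.88). The iron exporter ferroportin (Slc40a1) went from 609, 760 and 771 CPM to 101, 54.2 and 150 CPM, a fall of 2.81 on the log2 scale, and Slc11a1 and Hfe fell by 1.71 and 1.93. The rise was the metalloreductase Steap4, from at most 1.64 CPM to 43.9, 57.2 and 20.4 CPM (log2 change 5.14, adjusted p = 2.59e-05).

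Many cathepsin and lysosomal hydrolase genes other than Ctsk fell. In the list of cathepsins and lysosomal hydrolases, which leaves Ctsk out, 18 of 27 genes fell, 0 rose and 9 were not called, with a median of -1.06 (13 falls without day 0 library 2). The summed level was 79900, 121000 and 89600 CPM on day 0 and 30100, 25100 and 41200 CPM on day 3. Cathepsin B (Ctsb) went from 19700, 26500 and 22200 CPM to 5580, 4480 and 7480 CPM (log2 change -1.96, adjusted p = 0.000833), cathepsin S (Ctss) fell by 1.95 and cathepsin C (Ctsc) by 1.94. The membrane protein Lamp1 went from 3790, 4860 and 3920 CPM to 1460, 1090 and 1870 CPM, a fall of 1.5 on the log2 scale. Cathepsin D (Ctsd) went from 14500, 24800 and 17300 CPM to 5430, 4730 and 9770 CPM, with no overlap (log2 change -1.5, adjusted p = 0.013). Its adjusted p was 0.0554 without day 0 library 2, 0.0539 without day 3 library 1 and 0.0606 without day 3 library 2.

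Promoters are shown for Lamp1 and Ctsd, picked after their values were seen, with the E-box CACGTG, which the factors Tfeb and Tfe3 are known to bind. The part of Tfeb and Tfe3 in the lysosomal falls was not tested. The windows run from 250 bases before to 50 bases after the RefSeq start (GRCm38.p6), on the gene's own strand, 5′ to 3′, with each CACGTG in capitals. Lamp1 is chr8:13158911-13159210 on the plus strand and Ctsd chr7:142387778-142388077 on the minus strand.

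Lamp1: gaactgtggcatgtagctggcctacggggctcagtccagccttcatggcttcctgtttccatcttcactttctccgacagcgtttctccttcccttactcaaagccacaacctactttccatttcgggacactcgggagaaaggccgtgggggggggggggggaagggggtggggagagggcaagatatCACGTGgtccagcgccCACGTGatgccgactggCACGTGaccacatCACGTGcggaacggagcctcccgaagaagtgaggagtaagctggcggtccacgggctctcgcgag

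Ctsd: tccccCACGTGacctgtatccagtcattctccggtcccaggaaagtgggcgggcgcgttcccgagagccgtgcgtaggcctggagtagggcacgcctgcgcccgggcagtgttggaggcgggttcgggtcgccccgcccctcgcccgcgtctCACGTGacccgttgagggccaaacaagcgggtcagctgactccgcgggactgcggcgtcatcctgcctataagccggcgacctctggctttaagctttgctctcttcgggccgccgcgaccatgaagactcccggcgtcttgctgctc

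In Lamp1 the motif started 61, 45, 28 and 15 bases before the start, and in Ctsd 245 and 98 bases before it. Of the list, 21 of 27 genes matched the table with 24 windows, and 10 (41.7%) held CACGTG on either strand. The share was 7.15% of all 32851 windows of the table, 9.63% of the 13181 windows of tested genes, 8.49% of the 1414 windows of genes called at least 2-fold lower and 8.09% of the 1582 windows of genes called at least 2-fold higher. No match shown overlapped a match of another motif searched, and a match is a string of letters, not a shown binding site.

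Nearly all interferon response genes fell. Of 28 genes 27 fell and 1 was not called, with a median log2 change of -2.39, and 27 fell also without day 0 library 2. The summed level was 6280, 3410 and 4610 CPM on day 0 and 1200, 713 and 678 CPM on day 3. Ifit2, an antiviral RNA-binding protein, went from 507, 318 and 261 CPM to 16.9, 8.08 and 9.01 CPM (log2 change -5.00, adjusted p = 0.000245). Rsad2, which codes for viperin, went from 241, 207 and 121 CPM to 14.8, 6.48 and 7.99 CPM (log2 change -4.28, adjusted p = 0.000134). Ifit3 went from 411, 208 and 225 CPM to 26.6, 9.85 and 8.04 CPM (log2 change -4.24), and the GTPase Mx1 fell by 4.37, or by 3.77 without day 0 library 1. Ifit1bl1, whose reads may be shared with its near copies, had at most 0.179 CPM on day 3 and was at least 262-fold lower than its day 0 mean.

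The promoter windows of Rsad2 and Ifit3 are shown with the interferon response element in capitals, searched on both strands as GAAA, any 2 bases and GAAA again. Rsad2 is chr12:26456403-26456702 on the minus strand and Ifit3 chr19:34583279-34583578 on the plus strand, with the same bounds and build as above.

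Rsad2: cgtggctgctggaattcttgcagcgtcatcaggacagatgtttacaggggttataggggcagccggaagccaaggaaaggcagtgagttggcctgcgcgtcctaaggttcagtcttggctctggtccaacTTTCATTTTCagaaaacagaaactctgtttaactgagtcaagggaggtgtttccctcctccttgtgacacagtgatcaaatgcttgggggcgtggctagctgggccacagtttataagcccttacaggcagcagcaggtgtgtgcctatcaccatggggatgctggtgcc

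Ifit3: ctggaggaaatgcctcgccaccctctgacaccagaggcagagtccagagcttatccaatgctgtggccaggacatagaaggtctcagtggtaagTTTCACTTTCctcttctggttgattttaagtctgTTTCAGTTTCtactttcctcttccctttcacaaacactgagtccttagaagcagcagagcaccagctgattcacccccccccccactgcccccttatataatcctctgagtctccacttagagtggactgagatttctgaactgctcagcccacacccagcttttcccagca

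The element started 120 bases before the start in Rsad2 and 156 and 122 bases before it in Ifit3. In the interferon list, 21 of 28 genes matched with 24 windows, of which 14 (58.3%) held it. It stood in 3.44% of all windows, in 3.19% of windows of tested genes, in 114 of 1414 windows (8.06%) of genes at least 2-fold lower and in 30 of 1582 windows (1.90%) of genes at least 2-fold higher. The AP-1 motif TGANTCA was in 6.13% of windows of the genes at least 2-fold higher and 8.49% of those at least 2-fold lower, beside 5.48% of tested windows. The kappa B motif, GGG, any 3 bases and TTCC, was in 5.56% and 6.44% of them, beside 6.32%. In cholesterol synthesis 1 of 16 windows, that of Hmgcs1, held the sterol element TCACNCCAC.

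Antigen presentation, complement and chemokine genes were lower as well. In MHC class II presentation 10 of 13 genes fell, 0 rose and 3 were not called (median -1.75). The class II transactivator Ciita went from 19.8, 15.0 and 23.7 CPM to 1.55, 0.612 and 2.44 CPM (log2 change -3.66, adjusted p = 0.00172), and the invariant chain Cd74 and H2-Aa fell by 3.41 and 3.39, or by 4.29 and 4.19 without day 3 library 3. Of 18 complement genes 11 fell, 2 rose and 5 were not called (median -1.79). Vsig4, a complement receptor, fell by 2.44 and the protease gene C1s1 rose from at most 2.35 CPM to 23.5, 24.4 and 6.74 CPM (log2 change 3.71, or 4.36 without day 0 library 1), and the 2 rises became 1 without day 0 library 1, day 0 library 3 or day 3 library 2. Of 25 tested chemokine and chemokine receptor genes 10 fell, 1 rose and 14 were not called (median -1.10), and the falls became 6 without day 3 library 1, day 3 library 2 or day 0 library 3. The eotaxin gene Ccl24 fell by 3.92, and the interferon-induced Cxcl10 by 3.61, or by 3.01 without day 0 library 2. Ccr1, the chemokine receptor that was called higher, was at 18.7, 18.5 and 54.9 CPM on day 0 and 121, 145 and 103 CPM on day 3 (log2 change 2.00, adjusted p = 0.016), and it was not called without day 0 library 1 or day 0 library 2 and was 2.76 without day 0 library 3.

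Cytokine and activation genes changed both ways, with 4 of 20 higher, 9 lower and 7 not called (median -0.84). Lif, a cytokine of the interleukin 6 family, rose by 3.14 (adjusted p = 0.000551) and Socs3, a feedback inhibitor of such cytokines, rose by 2.03. Il1rn, the interleukin 1 receptor antagonist, went from 34.0, 10.9 and 17.9 CPM to 163, 158 and 33.9 CPM (log2 change 2.50, adjusted p = 0.00798), and day 3 library 3 overlapped day 0. The anti-inflammatory cytokine Il10 fell from 9.06, 8.08 and 6.41 CPM to 1.25, 0.734 and 1.70 CPM, a log2 change of -2.66.

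Markers of other bone marrow cells differed between the days too. All 14 neutrophil granule genes fell, with a median of -3.78, and 14 fell also without day 0 library 2. Their summed level was 6580, 4160 and 13500 CPM on day 0, 1670, 2290 and 3640 CPM on day 1 and 393, 118 and 1310 CPM on day 3. The S100a9 level, a calcium-binding protein abundant in neutrophils, was 1520, 1030 and 3510 CPM on day 0 and 129, 30.8 and 425 CPM on day 3 (log2 change -3.37, or -2.68 without day 0 library 3 and -4.66 without day 3 library 3). Day 0 library 3 had the highest levels, and without it the falls of the granule proteases Ctsg, Prtn3 and Mpo were -3.23, -3.55 and -3.06 on the log2 scale in place of -4.96, -4.59 and -4.37. Leaving out day 3 library 3 gave -5.94, -5.18 and -5.64. The eosinophil gene Epx had at most 1 count in any day 3 library and was at least 72.3-fold lower, or at least 30.7-fold without day 0 library 3. Prg2 fell by 6.09 and the histamine-forming enzyme Hdc by 3.98, or by 5.07 and 3.26 without day 0 library 3 and 7.43 and 4.66 without day 3 library 3. Of the 8 tested mast cell, basophil and eosinophil markers 3 fell and 5 were not called (median -2.52), with a summed level of 48.5 to 354 CPM on day 0 and 5.69 to 24.9 CPM on day 3. The part of these cells in the falls of other genes was not tested.

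Some B cell markers were present on day 0 and fell. Of 8 tested B cell markers 3 fell and 5 were not called (median -2.35, summed level 307 to 403 CPM on day 0 and 38.8 to 95.2 CPM on day 3), led by Ighm, the mu heavy chain, from 358, 335 and 252 CPM to 52.5, 7.71 and 28.1 CPM. Ighm fell by 3.42 on the log2 scale, or by 4.13 without day 3 library 1, and Igll1, a pre-B cell marker, had no counts in any of the 6 libraries. Of 11 T and NK cell markers only 3 could be tested, and 1 was called lower in the 6 libraries but not without any of day 3 libraries 1 to 3 or day 0 library 3. Cd3e was under 1 CPM in every library. Of 6 tested erythroid markers 2 fell, Epor by 2.70 and Gata1 at least 12.9-fold, and 4 were not called (median 0.24), while Alas2, the erythroid enzyme of heme synthesis, had no counts in any of the 6 libraries. Of 7 tested dendritic cell markers 2 fell, among them Batf3 by 3.78, and 5 were not called (median -1.50), and the count was 1 without day 0 library 3.

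Stromal and osteoblast markers were higher on day 3. Of 22 tested markers 19 rose, 0 fell and 3 were not called (median 3.11). The summed level was 5540, 1780 and 5650 CPM on day 0, 5560, 3880 and 11900 CPM on day 1 and 28800, 39800 and 40800 CPM on day 3. Col1a1, the main collagen of bone, was at 1390, 380 and 1440 CPM on day 0 and 8270, 11700 and 12100 CPM on day 3 (log2 change 3.32, adjusted p = 0.0363), without overlap, and with any 1 of the 6 libraries left out its log2 change was between 2.94 and 3.62 and its adjusted p between 0.0529 and 0.113. With title style as a covariate the change was 2.44. The number of rises depended on single libraries: 11 without day 0 library 1, 3 without day 0 library 2, 8 without day 0 library 3, 12 without day 3 library 1 and 7 without day 3 library 2. Ibsp, bone sialoprotein, which osteoclasts also express, went from 2.57, 0.231 and 4.08 CPM to 253, 235 and 27.0 CPM (log2 change 6.21, adjusted p = 0.00155, and 6.94 without day 0 library 3), with day 3 library 3 the lowest although it had the highest sum of the list. The osteoblast factor Sp7 rose by 3.50 and likewise was lowest in day 3 library 3, at 7.65 CPM against 22.6 and 19.9 CPM. Bglap, which codes for osteocalcin, had at most 2 counts in any of the 6 libraries. Under the label WT the summed level was 174, 826 and 6940 CPM on day 0 and 15300, 20200 and 16000 CPM on day 3.

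**Figure D5:**
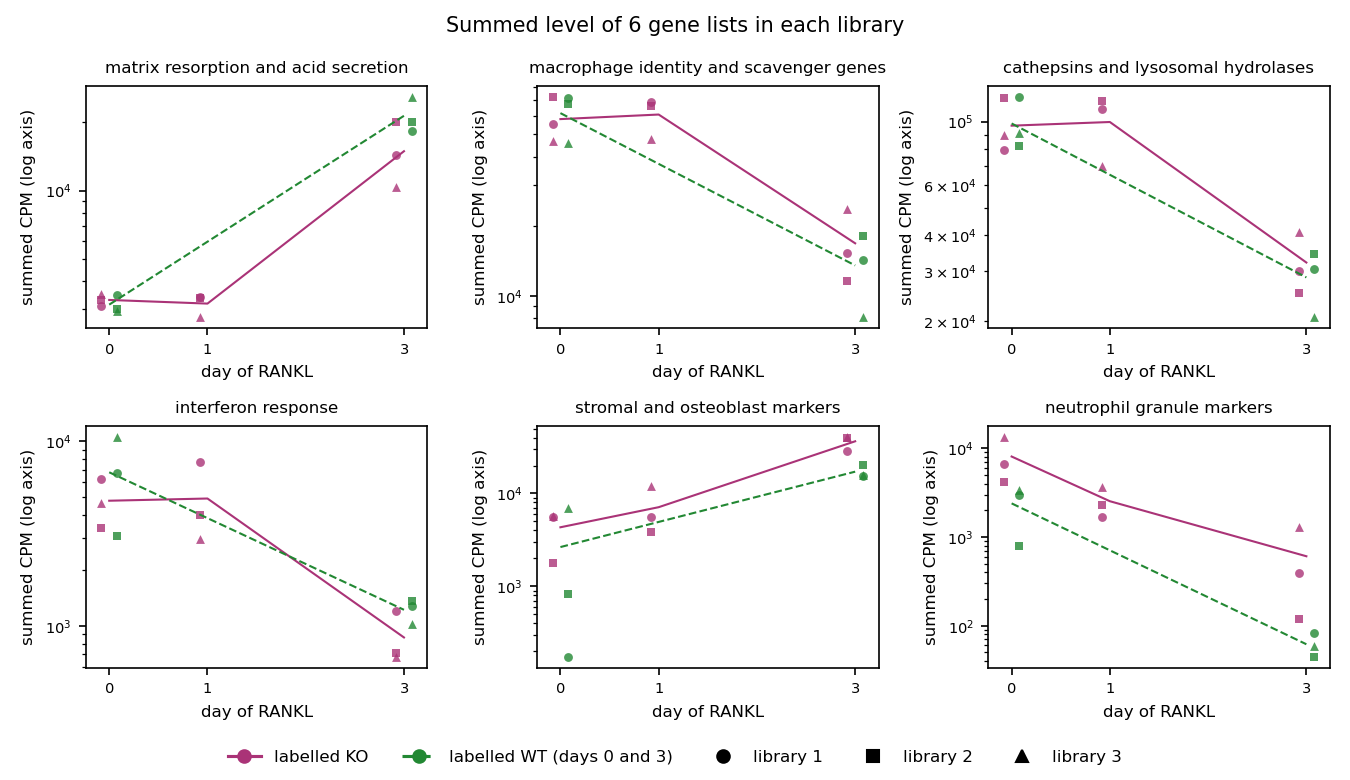
Summed CPM (log axis) of 6 gene lists in each library by day of RANKL, for libraries labelled KO on days 0, 1 and 3 and libraries labelled WT on days 0 and 3. Resorption genes rose from 3090 to 3500 CPM on day 0 to between 10400 and 20100 CPM on day 3 under the label KO, stromal markers rose and neutrophil granule genes fell in the same libraries.

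Of 20 factors by which osteoclasts are thought to signal to osteoblasts, 9 rose, 4 fell and 7 were not called (median 1.48). Cthrc1, a secreted collagen-triple-helix protein, went from 1.85, 0.231 and 4.81 CPM to 38.5, 65.5 and 71.0 CPM (log2 change 4.66, adjusted p = 0.00635, and 5.81 without day 0 library 3). Wnt10b rose by 3.79 and Efna2 by 3.44, and Bmp2 and Igf1 fell by 2.49 and 1.60 on the log2 scale. In the list of the Hippo pathway and YAP1, which includes Trim46, 6 of 27 genes rose, 0 fell and 21 were not called (median 1.13). This share of rises was close to the 20.2% over all genes, of which 22.3% fell, with a median of -0.01. By DESeq2 and on the 6 libraries alone 11 rose, and with total counts 13. The rises were 3, 2, 2, 2 and 3 without day 3 library 1, day 3 library 2, day 0 library 2, day 0 library 3 and day 3 library 3. Yap1, the transcriptional coactivator of the pathway, was at 23.2, 8.84 and 17.4 CPM on day 0 and 55.1, 59.6 and 77.1 CPM on day 3, a log2 difference of 1.95 that did not pass the test (adjusted p = 0.064). It was called by DESeq2 (adjusted p = 0.0284) and when only the 6 libraries were fitted, without and with the replicate block (adjusted p = 0.00497 and 0.00609). Its target Cyr61 differed by 1.13 (adjusted p = 0.302). Trim46, a ubiquitin ligase and one of the 6 rises, went from 0.642, 0.461 and 1.31 CPM to 6.08, 5.44 and 6.46 CPM (log2 change 2.88, adjusted p = 0.00251). Under the label WT Trim46 rose by 2.38 (adjusted p = 0.00702), and the difference of 0.50 between the labels did not pass (adjusted p = 0.981). Cthrc1, Yap1 and Cyr61 were highest in day 3 library 3, as the stromal sum was, and Trim46 was so by a small margin. Wnt10b and Efna2, of the same list as Cthrc1, and Ctsk and Nfatc1 were lowest there. The part of stromal cells in these values was not tested.

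Libraries of one day differed in their levels of the most changed genes. Of the 452 genes at least 8-fold higher, day 3 library 2 was the highest of its day in 233 (51.5%) and day 3 library 3 the lowest in 248 (54.9%). Of the 205 genes at least 8-fold lower, day 3 library 3 had the highest level of its day in 119 (58.0%) and day 3 library 2 the lowest in 127 (62.0%). Ranks within a day give levels, not changes, and the change of single libraries was not computed. Before RANKL, day 0 library 3 was the highest in 134 (65.4%) of the 205 and day 0 library 2 the lowest in 157 (76.6%). Day 1 did not enter the choice of these genes, but a wide gap between day 0 and day 3 did. Such a gap by itself favours day 1 lying short of day 3. Shares over all genes were not computed for these ranks or for the day 1 counts that follow. All 3 day 1 libraries were below all 3 of day 3 in 408 of the 452, and above all 3 of day 0 in 97. Among the 205, all 3 day 1 libraries were above all 3 of day 3 in 151 and below all 3 of day 0 in 91. Day 1 libraries 1 and 2 carry the title style of day 0 library 2. On the first principal component of all 18 libraries they stood at -32.5 and -37.8 and day 1 library 3 at 5.96, and the part of title style in these counts was not tested. Ctsk on day 1 was at 49.2, 49.3 and 34.9 CPM and Nfatc1 at 89.5, 99.2 and 115 CPM, the latter across the range of day 0. Lss, in contrast, was at 61.2, 58.5 and 56.6 CPM on day 1, between both days, and the summed cholesterol synthesis genes were at 2410, 2390 and 2130 CPM on day 1 beside 1180, 1440 and 1160 CPM on day 0 and 2550, 2290 and 2880 CPM on day 3.

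The same comparison in the libraries labelled WT showed whether the response differed by label. The difference of the responses (KO day 3 minus day 0, less WT day 3 minus day 0) passed in 0 of 14241 genes (0.0%) by edgeR, with 769 genes (5.4% of those tested) at an unadjusted p under 0.05 and 4 genes by DESeq2. Of the genes called under the label KO, 957 were not called under the label WT, of which 908 had the same sign there and 0 passed the test of the difference. Ctsk changed by 7.10 under KO and 7.97 under WT (difference -0.87, adjusted p = 0.926). Acp5 changed by 5.41 and 6.62 (difference -1.22, adjusted p = 0.91), Mmp9 by 3.84 and 6.04 (difference -2.20, adjusted p = 0.91) and Dcstamp by 7.62 and 9.64 (difference -2.01, adjusted p = 0.926). Each difference was negative, and none passed. For Lss the order was the other way, 1.95 and 1.29 (difference 0.66, adjusted p = 0.91), and for Ibsp 6.21 and 2.87 (difference 3.34, adjusted p = 0.91). The 4 genes that DESeq2 called were picked after their values were seen. Cercam went from 22.7 ± 2.49 to 48.3 ± 8.54 CPM under KO and from 28.0 ± 3.00 to 18.9 ± 5.06 CPM under WT (SD, n = 3, edgeR difference 1.65, adjusted p = 0.317, DESeq2 adjusted p = 9.31e-05). The others were Afg3l2, Porcn and Pcdhga1, with edgeR differences of -0.89, 1.63 and 7.82 (adjusted p = 0.41, 0.706 and 0.91). With 3 libraries on each day under each label, differences of this size could not be told from the spread between libraries by the edgeR fit.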

How the data were processed

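RNA libraries were made with a SMARTer mRNA kit. The authors deposited 1 table with whole-number counts per gene and FPKM per gene (per gene length and library size, from StringTie and Ballgown in the study's methods) for each of 18 libraries. StringTie and the builds GRCm38.p4 and mm10 are named in the submitters' processing notes. The aligner and the counting program are not given in the sources used here, nor is whether strand was used, so overlapping and near-identical genes may share counts. Libraries were grouped by their titles.

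The 18 libraries were fitted in 6 groups with edgeR 4.0.16 (R 4.3.3), using filterByExpr, TMM scaling and the quasi-likelihood test (12 residual degrees of freedom). Of 34745 genes 14241 passed the filter, and p-values were adjusted by Benjamini and Hochberg over these. Adjusted p-values under 0.05 were taken as calls. Levels are CPM on TMM-scaled library sizes. The script was tested on simulated data. DESeq2 1.42.0 and other filters, scalings, covariates and sample sets served as alternatives.

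The text names Zmat1, the 12 largest rises and falls among called genes whose days do not overlap and whose higher mean is at least 10 CPM, a set of fixed genes, and up to 3 called members with the largest rise and fall in each of 33 lists. Markers and promoter genes (Adgre1, Cd68, Col1a1, S100a9, Lamp1, Ctsd, Ifit3 and markers with no counts) were added after their values were seen. Members and lists were chosen with earlier results of these data known. Where all libraries of a day had at most 3 counts, the fold was given as a bound set by 3 counts per library, which covers counting error only.

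Deviations of same-numbered libraries of day 0 and day 3 from their day means correlated at 0.13, 0.135 and 0.398 over genes. All were above 0.1, so the numbers were treated as pairing the libraries in a fit with a replicate block. Different-numbered pairs of libraries 1 and 2 reached 0.129 and 0.155, so only library 3 stood out and a pairing of the others could not be told. The fit with a replicate block stands beside the unblocked one, which gave the calls here. Promoter windows are from RefSeq (GRCm38.p6), matched by symbol.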

Additional observations from a re-analysis of the deposited data

How the results depend on the processing

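The count of genes called, 6046 (2873 higher, 3173 lower), ranged from 4444 to 5234 with 1 library left out (2048 to 2394 higher, 2396 to 2862 lower). It was 6026 with the replicate block (2850 higher, 3176 lower), 5878 with the block on the 6 libraries alone, 5471 with no filter, 5467 with a stricter filter of 5 CPM in 3 libraries, 6122 with DESeq2 size factors, 6668 by DESeq2 and 6250 with title style as a covariate. Scaling by total counts gave 4274 higher and 1963 lower. The study's rule of an unadjusted p under 0.05 and a fold above 1.5 or below 0.66 gave 2825 higher and 2703 lower. The difference between labels was called in 0 genes in every fit except DESeq2 (4 genes) and the study's rule (483 genes). The replicate block took away the calls of 3 of 153 called genes examined singly, Atp6v0a1, Rpl4 and Rplp0, and moved the V-ATPase falls from 2 to 1, ribosomal rises from 3 to 1, serine and ATF4 falls from 1 to 2 and B cell rises from 0 to 1, and it changed no other call or list count by over 1.5 times. The block on the 6 libraries alone, set against the main fit, lost Tcirg1, Rplp0, Rpl4, Rpl10, Fth1 and Ftl1 and gained Atp6v0d2, Fos, Cx3cr1 and Yap1. Without the block the 6 libraries alone also lost Rpl10 and gained Fos and Yap1. With the block on the 6 libraries, V-ATPase rises were 8 (main fit 5), receptor rises 5 (2), cell cycle rises 8 (1) and chemokine rises 3 (1). Macrophage identity, dendritic and B cell rises were each 1 (0). V-ATPase falls were 1 (2), serine and ATF4 falls 3 (1), mast cell, basophil and eosinophil falls 5 (3) and ribosomal falls 0 (1). The 6 libraries without the block gave the same counts of receptor, cell cycle, dendritic and B cell rises. They also gave the same serine and ATF4 falls and ribosomal falls. Of the genes not called, 6 passed in 1 or more other fits: Atp6v0d2, Fos, Mitf, Cx3cr1, Yap1 and Cd68. List counts that moved by over 1.5 times in other fits included Hippo rises, 6, at 13 with total counts and 11 by DESeq2 and on the 6 libraries alone, V-ATPase rises, 5, at 11 with total counts, 8 by DESeq2 and 10 with title style, and RANK and M-CSF receptor rises, 2, at 4, 4 and 5 with total counts, by DESeq2 and on the 6 libraries alone. Of the 153, 118 passed in every fit that gave a value, 35 missed the threshold in 1 or more, and 0 changed direction. Zmat1, not called at -0.03, was 0.02 with the stricter filter, 0.03 with DESeq2 size factors and by DESeq2, 0.29 with total counts, 0.04 with the replicate block on all or on 6 libraries, 0.19 with title style and -0.22 to 0.39 with 1 library left out. Cx3cr1, not called at 1.27, ran from -0.26 to 3.04 with 1 library left out. The causes of these moves were not tested. Depth limits the genes with 3 or fewer counts per library on one day, whose folds are bounds only.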
